A study of Mus musculus with 8 samples.

Results

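The genes described here are 10 cytosolic chaperone genes of the mouse: the HSP70 genes Hspa8, Hspa1a and Hspa1b, the HSP110 genes Hspa4 and Hsph1, the HSP90 genes Hsp90aa1 and Hsp90ab1, and the HSP40 genes Dnaja1, Dnaja2 and Dnajb1. They were taken by symbol from a count table of 24746 genes, and all 10 were found. The set was selected on the difference between the genotypes in these same counts, which was already known when the list was drawn up, so the differences between the genotypes in these genes are given as a description and support nothing by themselves.

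Sorted bone marrow B cells of 8 mice, between 10 and 12 weeks of age, were sequenced. In 4 mice (genotype miR-15a/bfl/fl Vav-Cre, called dKO) both miR-15/16 clusters, the one with miR-15a and the one with miR-15b, were floxed, and 4 mice with intact clusters (miR-15a/b+/+ Vav-Cre) were the controls. All 8 mice thus carried Vav-Cre, a Cre transgene active in blood-forming cells and everything derived from them, so the deletion was not limited to B cells. RNA was amplified with a SMART-seq protocol, and the values are read counts per gene, given below as CPM, which is relative to the scaled library total. The title of the series concerns the IL-7 receptor in early B cell development.

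Total counts ranged from 25565090 to 34954230. Dleu2, the host transcript of miR-15a, stood at 12.7 to 25.0 CPM in the controls and 72.2 to 111 CPM in the dKO libraries, and the 4 precursor genes had 0 counts in every library, so the deletion itself was not checked by these values. Ddx3y, a Y-linked gene, was detected in control 1, dKO 3 and dKO 4 only. The sample labels name B1a B cells and the series text names pro-B cells. A mean of 1 CPM was reached by all 8 general B cell markers, all 12 B-1a markers and 4 of 10 pro-B markers, and Rag1, the recombinase gene of pro-B cells, had a count in 1 library only. Markers of other cells were present in every library. For T cells their summed level was 1631 to 2497 CPM in the controls and 1690 to 2601 CPM in the dKO libraries. Such a sum follows the most abundant genes of its list. The mean log2 CPM of the tested T cell markers was 2.68 to 4.86 in the controls and 3.81 to 4.62 in the dKO libraries. The T cell gene Cd3e stood at 2.67 to 12.2 CPM in the controls and 5.57 to 12.3 CPM in the dKO libraries. The summed level, controls first, was 557 to 5230 CPM and 525 to 2266 CPM for myeloid cells. For NK cells it was 17.1 to 181 CPM and 65.0 to 178 CPM. For plasma cells it was 2066 to 3112 CPM in the control and 3234 to 3908 CPM in the dKO libraries, with no overlap. The mean log2 CPM of the 7 tested plasma cell markers overlapped between the groups. This mean was 3.33 to 4.03 in the controls and 3.62 to 4.17 in the dKO libraries. By fold change, 4 of these markers were higher in the dKO libraries and 3 were lower. The part of plasma cells in the results below was not tested. In bulk RNA of this kind, fewer cells of a type and less RNA per cell cannot be told apart.

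HSP70 proteins bind and release unfolded stretches of other proteins by using ATP. HSP40 proteins, also called J proteins, bring the client and start the ATP hydrolysis, HSP110 proteins act as nucleotide exchange factors that reset HSP70, and HSP90 takes over clients such as kinases and receptors at a later stage of folding. Heat shock factor HSF1 induces many of these genes when unfolded proteins build up, while Hspa8 and Hsp90ab1 are also expressed at a high basal level in most cells. The miR-15/16 microRNAs repress transcripts that pair with their seed.

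The HSP70 gene Hspa8 and the J protein gene Dnaja1 were 1.97 and 2.13 times as abundant in the controls as in the dKO libraries, with no overlap between the groups, while the HSP90 genes, Hspa4 and Dnaja2 overlapped between the groups, with log2 fold changes of -0.27 to 0.02. Hspa8 (ENSMUSG00000015656) encodes HSC70, the constitutive HSP70 of the cytosol. Its level was 614, 777, 551 and 609 CPM in controls 1 to 4 and 308, 342, 270 and 373 CPM in dKO libraries 1 to 4. The lowest control thus lay above the highest dKO library. The control mean was 638 ± 97.3 CPM and the dKO mean 323 ± 44.3 CPM (SD, n = 4 each), giving a log2 fold change of -0.98 ± 0.17 (SE, dKO over control). Many processed copies of Hspa8 lie elsewhere in the genome. Of all stretches of 75 bases in its longest coding transcript, 68.0% occur in transcripts annotated to other genes, 9 of them in all, so the level of Hspa8 depends on how reads with several matches were counted.

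The stress-induced HSP70 genes Hspa1a (ENSMUSG00000091971) and Hspa1b (ENSMUSG00000090877) were close to the detection limit in every library. Hspa1a had 0, 4, 12 and 6 counts in controls 1 to 4 and 0, 2, 2 and 4 counts in dKO libraries 1 to 4. Hspa1b had 4, 22, 20 and 10 counts in the controls and 10, 4, 4 and 2 counts in the dKO libraries. The groups overlapped for both genes, and neither passed the filter on low counts, so neither was tested. The limit set by 3 counts was 0.0854 to 0.111 CPM, for counting error alone. All counts of both genes were even, as when both mates of a pair are counted. If so, the counts stand for fewer fragments and the limit lies higher. The copies share 52.7% of the 75-base stretches of Hspa1a, so reads of either gene may have been lost or assigned to the other. Their promoters show the likeness too, and are printed here because Hspa1a and Hspa1b are the classical heat shock genes of this set. The windows are the 250 bases before the RefSeq start (GRCm38.p6), on the minus strand at chr17:34972157-34972406 for Hspa1a and chr17:34959239-34959488 for Hspa1b, and they differ at 3 positions. Capitals mark a pair of inverted heat shock units (GAANNTTC).
Hspa1a: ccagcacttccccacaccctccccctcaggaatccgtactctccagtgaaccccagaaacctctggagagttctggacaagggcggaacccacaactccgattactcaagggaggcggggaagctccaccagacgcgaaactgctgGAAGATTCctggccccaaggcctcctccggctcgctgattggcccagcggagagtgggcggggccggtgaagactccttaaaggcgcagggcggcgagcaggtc
Hspa1b: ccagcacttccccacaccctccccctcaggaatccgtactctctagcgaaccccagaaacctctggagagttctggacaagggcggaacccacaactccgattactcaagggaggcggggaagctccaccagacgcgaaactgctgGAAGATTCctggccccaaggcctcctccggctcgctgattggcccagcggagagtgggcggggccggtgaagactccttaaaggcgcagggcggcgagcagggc

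**Figure D1:**
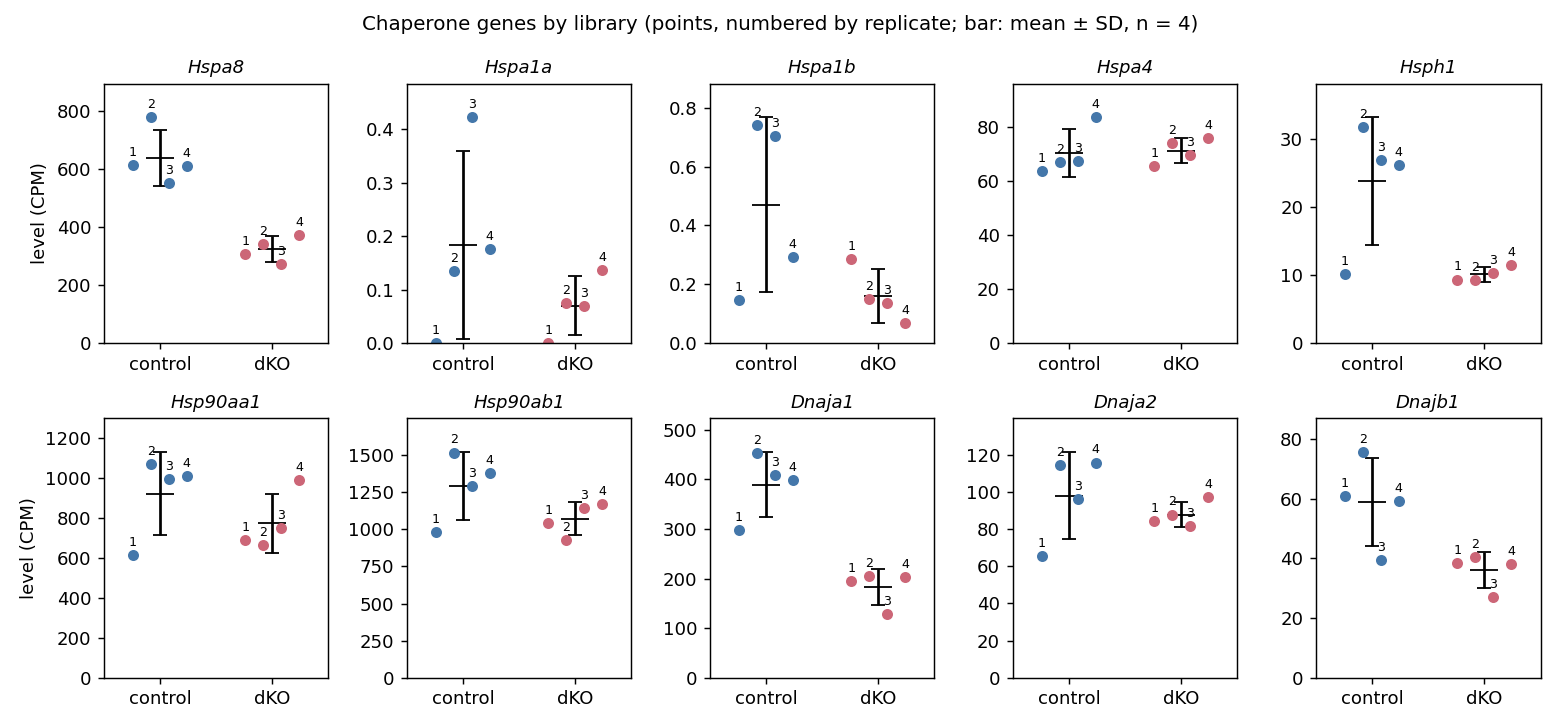
Level in CPM (y axis, linear and starting at 0) of each of the 10 chaperone genes in the 4 control libraries (blue) and the 4 dKO libraries (red), with points numbered by replicate and bars for the mean ± SD. The groups are apart for Hspa8 and Dnaja1 and overlap for the other 8 genes, and control 1 lies at the dKO level for Hsph1.

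Of the HSP110 genes, which encode exchange factors of HSP70, Hsph1 was lower in all dKO libraries than in 3 of the 4 controls, and Hspa4 overlapped between the genotypes. Hsph1 (ENSMUSG00000029657), the heat-inducible member, stood at 10.1, 31.7, 26.9 and 26.2 CPM in controls 1 to 4. In dKO libraries 1 to 4 it stood at 9.31, 9.21, 10.3 and 11.4 CPM. Control 1 therefore lay among the dKO libraries, and the other 3 controls were all above 26 CPM. The means were 23.7 ± 9.40 and 10.1 ± 1.04 CPM (SD, n = 4 each), and the fitted log2 fold change was -1.24 ± 0.29 (SE), which was -1.48 without control 1. Hsph1 shares no 75-base stretch with another annotated gene. Hspa4 (ENSMUSG00000020361) stood at 63.7, 66.8, 67.3 and 83.5 CPM in the controls and 65.4, 74.0, 69.5 and 75.8 CPM in the dKO libraries. Its log2 fold change was 0.02 ± 0.14 (SE).

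The HSP90 genes were the most abundant of the set and overlapped between the genotypes. Hsp90aa1 (ENSMUSG00000021270), the more inducible form, stood at 613, 1067, 995 and 1008 CPM in controls 1 to 4 and at 687, 664, 750.3 and 986 CPM in dKO libraries 1 to 4. Hsp90ab1 (ENSMUSG00000023944), the constitutive form, stood at 984, 1519, 1291 and 1382 CPM in the controls and at 1045, 927, 1145 and 1174 CPM in the dKO libraries. Control 1 was the lowest control for both, and dKO 4 the highest dKO library. The log2 fold changes were -0.25 ± 0.21 for Hsp90aa1 and -0.27 ± 0.18 for Hsp90ab1 (SE). Hsp90aa1 shares 53.1% of its 75-base stretches with other annotated genes, and Hsp90ab1 0.736%. There were 70.6 ± 6.20 Hsp90aa1 counts per 100 Hsp90ab1 counts in the controls and 71.7 ± 8.66 in the dKO libraries (SD, n = 4 each).

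Among the J protein genes, Dnaja1 lay lower in every dKO library, Dnajb1 overlapped between the groups through 1 control, and Dnaja2 overlapped broadly. Dnaja1 (ENSMUSG00000028410), a farnesylated partner of HSC70, stood at 298, 452, 408 and 399.5 CPM in controls 1 to 4. In dKO libraries 1 to 4 it stood at 195, 205, 128 and 203 CPM. The groups did not overlap, control 1 was the lowest control, and dKO 3 lay apart below the other dKO libraries. The means were 389 ± 65.5 and 183 ± 36.9 CPM (SD, n = 4 each), and the fitted log2 fold change was -1.09 ± 0.19 (SE). Of its 75-base stretches, 16.6% occur in other annotated genes. Dnajb1 (ENSMUSG00000005483), the HSP40 that HSF1 induces with HSP70, stood at 61.1, 75.6, 39.6 and 59.3 CPM in the controls and at 38.5, 40.6, 27.2 and 38.3 CPM in the dKO libraries. Control 3 lay below dKO 2, so the groups overlapped by that library alone. Its log2 fold change was -0.70 ± 0.20 (SE), and it shares no 75-base stretch with another annotated gene. Dnaja2 (ENSMUSG00000031701), a close relative of Dnaja1, stood at 65.7, 115, 96.2 and 116 CPM in the controls and at 84.5, 87.9, 81.6 and 97.3 CPM in the dKO libraries. Its log2 fold change was -0.16 ± 0.18 (SE).

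**Figure D2:**
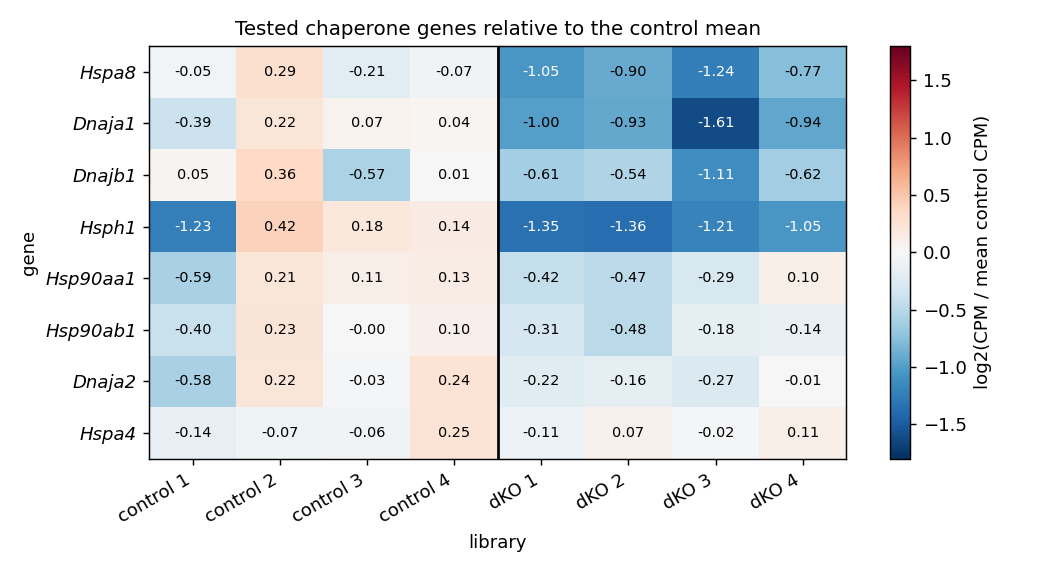
Log2 ratio of the CPM in each library to the mean control CPM (color scale and printed values) for the 8 chaperone genes that passed the filter on low counts, with libraries in columns and the line parting controls from dKO libraries. Hspa8 and Dnaja1 are lower in the 4 dKO libraries than in any control, and control 1 is low for Hsph1, Hsp90aa1, Hsp90ab1 and Dnaja2 but not for Hspa8 or Dnajb1.

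None of the 8 chaperone genes that passed the filter had an adjusted p under 0.05 over all 11363 genes tested (edgeR quasi-likelihood test), where 0.088% of all genes did in either direction and 0.0264% were called lower. At an unadjusted p under 0.05 there were 4, Hspa8, Dnaja1, Hsph1 and Dnajb1, all lower, beside 4.84% of all genes. Hspa8, Dnaja1 and Hsph1 passed in DESeq2, which called 2.83% of all genes in either direction and 1.06% lower, and in limma voom, which called 2.48% and 0.924%. The same 3 passed in edgeR without control 1, where 0.851% of genes were called and 0.208% lower, and Hspa8 and Dnaja1 passed with no filter (0.259% and 0.0647%). Control 1 was the only control in which Ddx3y was detected, as it was in dKO 3 and dKO 4. The fit without control 1 thus held no male control. In all 4 dKO libraries 2 of the 8 lay below all controls, beside 2.96% of all genes tested. A negative log2 fold change was found for 7 of the 8, with a median of -0.49, beside 52.3% of all genes and a median of -0.02. Since the genes were chosen with this contrast known, nothing is read from these counts.

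Ratios between members do not depend on how libraries were scaled. Hspa8 counts per 100 HSP90 counts were 38.4, 30.1, 24.1 and 25.5 in controls 1 to 4 and 17.8, 21.5, 14.3 and 17.3 in dKO libraries 1 to 4. Dnaja1 counts per 100 HSP90 counts were 16.7 to 18.6 in the controls and 6.75 to 12.9 in the dKO libraries. Control 1, low for the HSP90 genes, had the highest ratio for both genes, and the groups did not overlap in either ratio. Per 100 Dnaja2 counts there were 404 ± 46.4 Dnaja1 counts in the controls and 207 ± 35.5 in the dKO libraries, and per 100 Hspa4 counts there were 918 ± 189 and 453 ± 45.0 Hspa8 counts (SD, n = 4 each). These are ratios of counts, not corrected for length. All members together took 0.271% to 0.410% of the scaled total in the controls and 0.235% to 0.296% in the dKO libraries, and these ranges overlap.

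Compared per length, as CPM per kilobase of annotated exon, the genes spanned a wide range, with the HSP90 genes and Hspa8 on top. In the controls the mean level per kilobase was 431 for Hsp90ab1, 234 for Hsp90aa1 and 148 for Hspa8. It was 45.1 for Dnaja1, 33.0 for Dnaja2, 18.4 for Dnajb1, 12.7 for Hspa4 and 3.26 for Hsph1, and 0.168 and 0.0618 for Hspa1b and Hspa1a. Ranges over the controls overlapped between Hsp90aa1 and Hspa8 and along the run from Dnaja1 through Dnaja2 and Dnajb1 to Hspa4, though within each library the gene named first was the higher one. By these exon lengths, the order changed at 2 places in the dKO libraries. Dnaja2, at 29.5 CPM per kilobase, lay above Dnaja1, at 21.2, in all 4 libraries, and Hspa4, at 12.9, lay above Dnajb1, at 11.3, in 3 of 4. Hspa8, at 75.2, no longer overlapped with Hsp90aa1, at 196. The lengths join the exons of all annotated transcripts, with 8629 bases for Dnaja1, 2975 for Dnaja2 and 4301 for Hspa8. The longest coding transcripts of these genes have 5622, 2919 and 2394 bases. The order of neighbouring genes, in either genotype, therefore depends on the length taken, and no other length was used for it.

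Within each genotype the genes varied together in 2 ways. Taken as deviations from the genotype mean of log2 CPM over the 8 libraries, Hsph1, Hsp90aa1, Hsp90ab1 and Dnaja2 followed each other most closely, with Pearson r of 0.84 to 0.93 between them. Hspa8 and Dnajb1 formed another pair (r = 0.85) that was nearly unrelated to the first set in the case of Dnajb1 (r = -0.06 with Hsph1), and Dnaja1 lay between (r = 0.65 with Hspa8 and 0.58 with Hsph1). These figures describe 8 libraries that share a scaling, and control 1 is the lowest control for each gene of the first set. The 6 other genes most like the mean of the members were March5, Got1, Rabgap1, Vrk1, Dpf2 and Isy1, with r of 0.97 to 0.98 and Spearman rho of 0.90 to 1.00, out of 7581 genes with at least 5 CPM. So many genes were searched over so few libraries that 1% of them reached an r of 0.89 or more. The groups overlapped for March5, Rabgap1, Vrk1, Dpf2 and Isy1, with log2 fold changes of -0.30 to 0.13. Only Got1, an enzyme of the malate-aspartate shuttle, lay below all controls in every dKO library, as did 2.96% of all genes tested. Its means were 14.8 ± 2.11 CPM (dKO) and 26.2 ± 6.38 CPM (control; SD, n = 4 each). The fitted log2 fold change of Got1 was -0.82 ± 0.20 (SE; adjusted p by edgeR 0.13).

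Most genes that work with the chaperones had a negative log2 fold change, and none passed in edgeR over all genes. Of 86 such genes in 6 lists 77 were tested, of which 53 lay below 0 and 24 above 0, with a median log2 fold change of -0.15, beside 52.3% of all genes below 0. None had an adjusted p under 0.05 in edgeR, while DESeq2 called 3 and limma voom 6, all lower, beside 1.06% and 0.924% of all genes called lower. At an unadjusted p under 0.05 (edgeR), 17 were lower, beside 4.84% of all genes, and 2 higher, beside 679 of the 11363 genes tested. In every dKO library 11 lay below all controls and 5 above, beside 2.96% and 4% of all genes. The lists overlap, since HSF1 target genes include co-chaperones. They were drawn up with earlier results of these data known, so the counts are given as a description.

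HSP90 co-chaperones, which deliver clients to HSP90 and pace its ATP cycle, had 15 of 20 members negative, with a median of -0.26 and none called in edgeR over all 8 libraries. DESeq2 called Cacybp, limma voom called Cacybp, Chordc1, Stip1 and Fkbp4, and edgeR without control 1 called Ahsa2 and Stip1. Cacybp, a partner of the ubiquitin ligase SIAH1, stood at 393, 302, 433 and 363 CPM in controls 1 to 4 and at 223, 228, 181 and 255 CPM in dKO libraries 1 to 4. The groups did not overlap (log2 fold change -0.75 ± 0.17, SE, edgeR adjusted p = 0.11). Stip1, the HOP protein that links HSP70 to HSP90, averaged 66.3 ± 13.9 CPM (control) and 44.2 ± 1.46 CPM (dKO; SD, n = 4 each). Its log2 fold change was -0.58 ± 0.17 (SE), with an edgeR adjusted p of 0.19, and of 0.029 without control 1. Chordc1 was similar at 58.5 ± 10.6 against 39.2 ± 5.07 CPM (-0.58 ± 0.16, edgeR adjusted p = 0.19). Stip1, Chordc1, Cacybp, Fkbp4 and Ahsa1 were the 5 members whose dKO libraries all lay below the controls, and Stub1, the CHIP ubiquitin ligase, was the 1 member whose dKO libraries all lay above. Over all genes 2.96% lay below and 4% above in this way. Fkbp4, Ahsa1, Ahsa2 and Stub1 were named after their values were seen.

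HSP70 relatives and co-chaperones had 9 of 14 tested members negative, with a median of -0.15 and none called in edgeR, while DESeq2 called Bag2. St13, the HIP protein that holds HSP70 in its ADP state, averaged 73.2 ± 4.30 CPM (control) and 53.1 ± 10.4 CPM (dKO; SD, n = 4 each), with no overlap and a fitted log2 fold change of -0.46 ± 0.16 (SE; adjusted p by edgeR 0.28). Bag2, an exchange factor and inhibitor of CHIP, had a low level of 1.98 ± 0.984 against 0.509 ± 0.163 CPM (-1.95 ± 0.50, edgeR adjusted p = 0.15), also with no overlap. Hspa14, a ribosome-bound HSP70, stood at 57.9 ± 7.61 against 46.2 ± 3.08 CPM (-0.33 ± 0.14, edgeR adjusted p = 0.42), and here the groups overlapped. St13 and Bag2 were the 2 of 14 tested members wholly below the controls, beside 2.96% of all genes. None lay wholly above, beside 4% of all genes.

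Other J proteins had 13 of 21 members negative, with a median of -0.07, near that of all genes. Dnajb2 averaged 11.1 ± 4.58 CPM (control) and 5.32 ± 1.38 CPM (dKO; SD, n = 4 each), and its log2 fold change was -1.06 ± 0.30 (SE; adjusted p by edgeR 0.19), a gene that DESeq2 and limma voom called. Dnajc9, a J protein that is also a histone chaperone, stood at 252 ± 61.4 against 182 ± 5.53 CPM (-0.47 ± 0.18, edgeR adjusted p = 0.34), and Dnajb12, anchored in the ER membrane, at 16.1 ± 2.14 against 12.3 ± 1.52 CPM (-0.39 ± 0.17, edgeR adjusted p = 0.44). The dKO libraries of all 3 lay below the controls. Among the 21 members this held for 4, and for 1 member all dKO libraries lay above the controls. Over all genes 2.96% lay below and 4% above in this way.

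Relatives in the ER and in mitochondria had 9 of 10 members negative, with a median of -0.29. None lay wholly below the controls, beside 2.96% of all genes. Hspd1 and Hspe1 encode the mitochondrial chaperonin and share a promoter. Hspd1 averaged 264 ± 46.0 (control) and 186 ± 30.1 CPM (dKO; SD, n = 4 each), and the fitted log2 fold change was -0.50 ± 0.17 (SE; adjusted p by edgeR 0.29), a gene that limma voom called. Hspe1 stood at 253 ± 96.0 against 167 ± 39.9 CPM (-0.60 ± 0.26, edgeR adjusted p = 0.44). Grpel2, an exchange factor of mitochondrial HSP70, stood at 34.4 ± 6.84 against 25.5 ± 4.77 CPM (-0.43 ± 0.19, edgeR adjusted p = 0.44). The small HSP and HSF1 target list had 13 of 19 tested members negative and a median of -0.46, and its 3 members with the smallest p were Cacybp, Chordc1 and Stip1. The transcription factor Hsf1 stood at 8.93 ± 2.33 against 7.36 ± 1.85 CPM (-0.28 ± 0.25, edgeR adjusted p = 0.77), and its inhibitor Hsbp1 at 261 ± 51.9 against 240.4 ± 10.2 CPM (-0.12 ± 0.16, edgeR adjusted p = 0.86). Hsf2bp, a germ line protein that binds HSF2, stood at 0.69 ± 0.44 against 1.64 ± 0.27 CPM, with all dKO libraries above the controls (1.24 ± 0.53, edgeR adjusted p = 0.42). Of the 4 tested heat shock factor genes and regulators 2 were positive, and Hsf2bp was the 1 wholly above the controls, beside 4% of all genes.

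**Figure D3:**
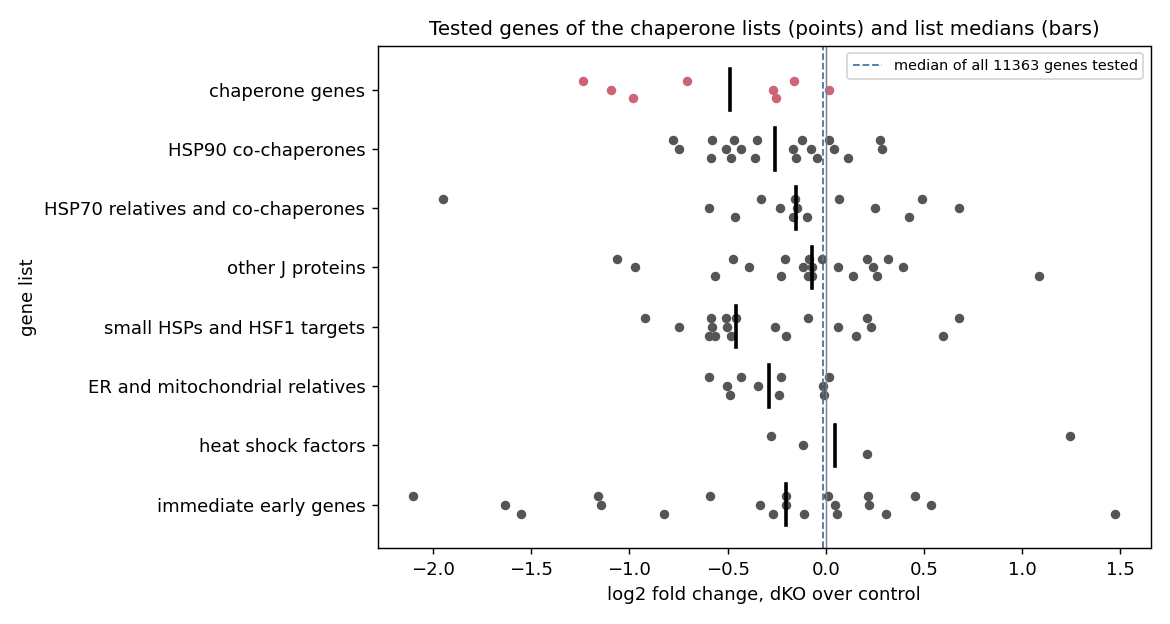
Log2 fold change, dKO over control (x axis), of each tested gene of the chaperone set (red points) and of 7 related lists (grey points), with a black bar at each list's median and a dashed line at the median of all genes tested. The medians lie at -0.49 for the chaperone set, -0.46 for the HSF1 target list and -0.26 for HSP90 co-chaperones, and at -0.07 for other J proteins.

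Levels that could move with the chaperones were compared by library. Immediate early genes, which cells induce quickly on stimulation or handling, had a mean log2 CPM of 3.14 to 4.49 in the controls and 3.52 to 3.85 in the dKO libraries, and 12 of 21 members were negative, with a median of -0.20 and none called in edgeR. Control 3 had the lowest mean of all 8 libraries and control 2 the highest, and the part of these genes in the chaperone difference was not tested. Dusp2 had the smallest p in that list, at 8.93, 68.7, 12.0 and 54.5 CPM in controls 1 to 4 and 10.8, 9.95, 10.5 and 15.1 CPM in dKO libraries 1 to 4 (log2 fold change -1.63 ± 0.64, SE, edgeR adjusted p = 0.40), and without controls 2 and 4 the log2 fold change was 0.15. Fosl2 (1.48 ± 0.67, edgeR adjusted p = 0.46) and Klf4 (-1.16 ± 0.54, edgeR adjusted p = 0.48) overlapped between the groups, and for Klf4 the log2 fold change was -0.29 without control 2.

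Markers of follicular B-2 cells, the conventional B cells, averaged 5.18 to 7.20 on the log2 CPM scale in the controls, with controls 2 and 4 high, and 5.22 to 5.65 in the dKO libraries. All 8 markers were detected, and 7 had a negative log2 fold change. B-1a markers had a mean log2 CPM of 4.93 to 5.85 in the controls and 6.24 to 6.46 in the dKO libraries, and all 12 had a positive log2 fold change, with 1 called (edgeR). Without controls 2 and 4 the log2 fold change was -0.85 for Hspa8, -0.95 for Dnaja1, -0.88 for Hsph1 and -0.48 for Dnajb1, and none of the 8 members was called. With a sex term in the model the log2 fold change was -0.97 for Hspa8, -0.99 for Dnaja1 and -1.04 for Hsph1, an alternative chosen after seeing the data. The part of the B-1a difference, which parts the genotypes without overlap, was not tested.

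**Figure D4:**
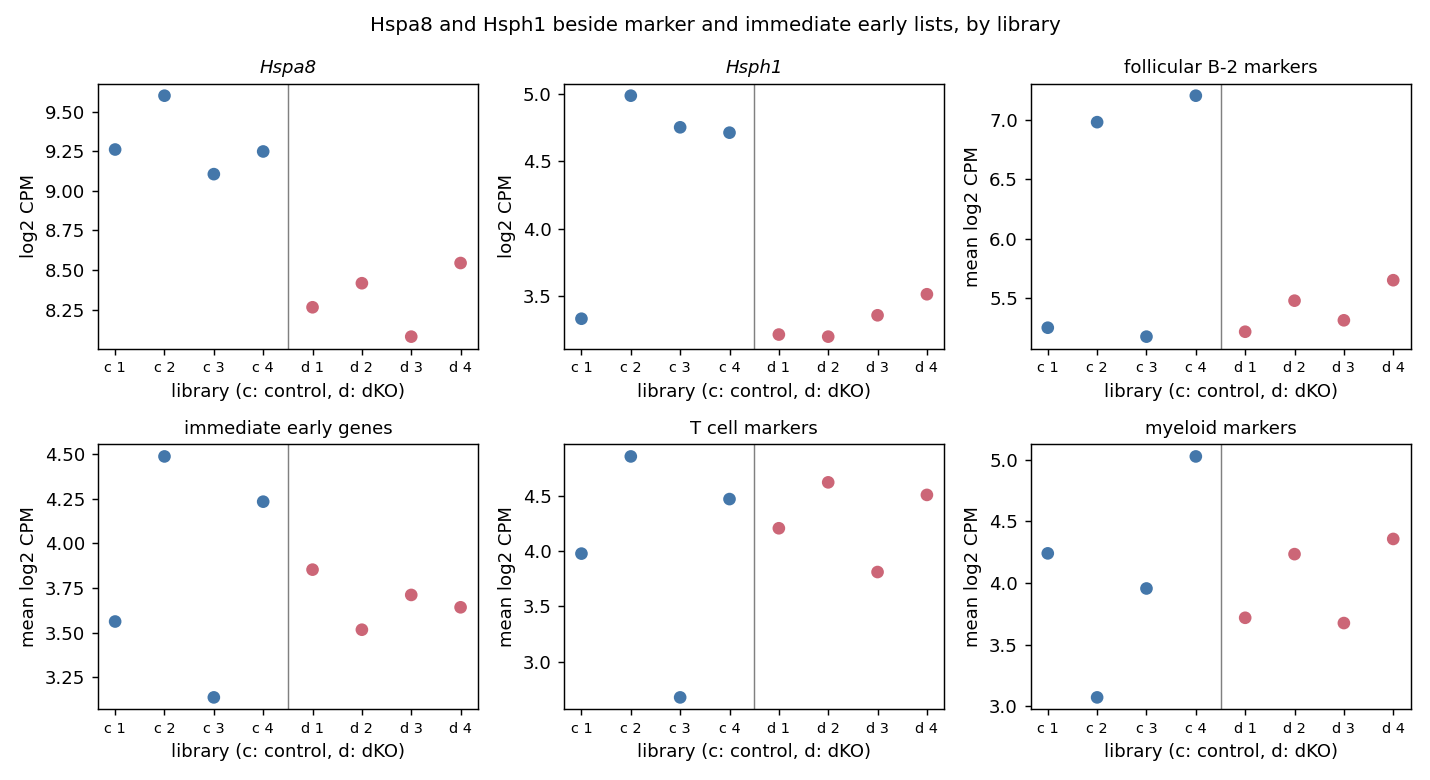
Log2 CPM of Hspa8 and Hsph1 and mean log2 CPM of 4 gene lists (y axes) in each library (x axis, controls in blue, dKO in red). Controls 2 and 4 stand out in follicular B-2 markers and immediate early genes. For Hspa8 the groups do not overlap.

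The targeted microRNAs share a seed, and its match was searched in the 3′ UTRs of the 8 tested chaperone genes. In GRCm38.p6 miR-15a-5p lies at chr14:61632075-61632096 on the minus strand and miR-15b-5p at chr3:69009775-69009796 on the plus strand, and miR-16-5p is encoded beside each. The mature sequences from RefSeq (GRCm38.p6) are shown with the seed, bases 2 to 8, in capitals, to show which letters were searched.
mmu-miR-15a-5p: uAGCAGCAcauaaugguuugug
mmu-miR-15b-5p: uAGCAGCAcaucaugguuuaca
mmu-miR-16-5p: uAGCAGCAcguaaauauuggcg
The matching letters TGCTGCT occurred in the longest annotated 3′ UTR of 1 of the 8, Hsph1, and in that of 24.8% of the 10407 tested genes with such a UTR. None was found in Hspa8, whose 3′ UTR is only 83 bases long, in Dnaja1, with 4203 bases, or in Dnajb1, with 1834 bases. The match in Hsph1 starts at base 237 of 963, here with the match in capitals.
Hsph1 site: tgagctctgtacagtatTGCTGCTcataca
A match is a run of letters in an annotated UTR and was not tested as a site.

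Promoters were searched for heat shock units, the inverted repeats of GAA to which HSF1 binds. RefSeq windows were at hand for 7 members, without Hspa8 and the HSP90 genes. Both pairs, GAANNTTC and TTCNNGAA, read the same on either strand, and they may overlap each other. At least 1 pair occurred in the 250 bases before a start of Dnaja1, Hsph1, Hspa1a and Hspa1b, and in 12.8% of the 32851 promoter windows of all genes. The share is of windows, while a member was counted if any of its windows held a pair, so they are not like measures. Hspa1a and Hspa1b are also near copies. A run of 3 such units in alternating direction and at the same spacing, with every letter exact, occurred in none of the 7 and in 0.466% of all windows. In Hspa1a, Hspa1b and Hsph1 the pair lies in a longer run in which 1 unit differs by 1 letter. Such inexact runs were not counted, in the members or in all windows. Dnajb1, Dnaja2 and Hspa4 had no pair in these windows. For Dnajb1 the window at chr8:83608298-83608547 (plus strand, GRCm38.p6) lies downstream of another annotated start of the gene, so it is not promoter sequence for that start. The windows of Dnaja1 (chr4:40722218-40722467, plus strand) and Hsph1 (chr5:149636337-149636586, minus strand, both GRCm38.p6) are shown because these genes had large differences and hold a pair, marked in capitals, which starts 124 and 33 bases before the annotated start.
Dnaja1: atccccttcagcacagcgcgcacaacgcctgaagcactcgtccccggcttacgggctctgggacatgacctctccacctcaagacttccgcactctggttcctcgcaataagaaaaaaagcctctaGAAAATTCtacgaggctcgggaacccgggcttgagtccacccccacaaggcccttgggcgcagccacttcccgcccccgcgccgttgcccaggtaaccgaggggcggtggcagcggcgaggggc
Hsph1: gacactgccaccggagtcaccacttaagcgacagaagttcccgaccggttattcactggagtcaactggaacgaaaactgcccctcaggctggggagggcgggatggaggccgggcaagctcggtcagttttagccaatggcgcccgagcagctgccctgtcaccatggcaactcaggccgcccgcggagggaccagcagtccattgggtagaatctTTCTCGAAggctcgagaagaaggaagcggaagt
The other 2 Dnaja1 windows hold no pair. These matches describe the letters and say nothing of binding in these cells.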

How the data were processed

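Counts of reads for each gene, not scaled, were deposited by the authors in 1 table of 8 libraries. Per the submitters' processing notes, Trimmomatic, STAR and featureCounts were used on GRCm39. The sources used here do not give versions, annotation, strand setting or the treatment of reads with several matches. Column codes quoted in the labels tied columns to samples; another 3 columns without a name were left aside. Genes were filtered with filterByExpr, scaled (TMM), and compared in edgeR 4.0.16 (robust quasi-likelihood test, genotype only, Benjamini-Hochberg adjustment over 11363 genes) in R 4.3.3. The script was tested on simulated data. Log2 CPM uses a prior count of 2. Exon lengths, 3′ UTRs and shared 75-base stretches come from GENCODE M21 (GRCm38), another build, so no coordinates were taken from it. P-values set the difference between the groups against the spread among these 4 and 4 mice, where the spread of each gene is moderated by that of all genes. Members and lists were chosen with earlier results of these data known. Named are all members, from each related list the 3 genes with the smallest p and any called gene, and the 6 genes most like the member mean. Other settings were upper quartile and RLE scaling, limma 3.58.1 (voom, quality weights), DESeq2 1.42.0, other filters, halved counts, a replicate block, left-out libraries and, chosen after seeing the data, a sex term (sex read from Ddx3y and Xist). Of counts below 20, 72.7% to 77.3% per library were even, as when both mates of a pair are counted. Seed matches of the 2 chaperone genes that were not tested are not reported here.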

Additional observations from a re-analysis of the deposited data

Results flagged for a closer look

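Within a group of 4 libraries, 1 library stood far from the other 3 in 5 of the 52 groups checked, by the gap to its nearest neighbour as a share of the group's range in log2 CPM (Dixon's test, by which chance marks about 1 in 20 groups). Control 1 was low for Hsph1 (0.834), at 10.1 CPM against 26.2 to 31.7 CPM in the other controls, and for Hsp90aa1 (0.873), at 613 CPM against 995 to 1067 CPM. The library dKO 3 was low for Dnaja1 (0.896), at 128 CPM against 195 to 205 CPM, and for Dnajb1 (0.854), at 27.2 CPM against 38.3 to 40.6 CPM. Control 3 was high for Bag2 (0.879), at 3.45 CPM against 1.38 to 1.55 CPM.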

How the results depend on the processing

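Of 11363 genes, 10 were called in edgeR, against 322 in DESeq2, 282 in limma voom, 40 with no filter, 59 without controls 2 and 4, and 4 to 98 with 1 library left out. Of the chaperone genes 0 were called, against 3 in DESeq2, 3 in limma voom, 2 with no filter and 0 to 3 with 1 library left out (3 without control 1). Of the related lists 0 were called, against 3 in DESeq2, 6 in limma voom and 0 to 2 with 1 library left out. With a sex term 13 genes and 0 of the chaperone genes were called. Over the 18 alternatives the log2 fold change stayed between -1.06 and -0.85 for Hspa8, -1.19 and -0.95 for Dnaja1, -1.48 and -0.88 for Hsph1 and -0.85 and -0.48 for Dnajb1. Hspa4 changed sign in limma voom (-0.086) and in 5 fits with 1 library left out (range -0.023 to 0.11). Without controls 2 and 4 the sign changed for Dnaja2 (0.12), Hsf1 (0.012), Dusp2 (0.15) and Klf4 (0.014), and without control 1 for Hsbp1 (0.033, against -0.21 as the lowest value with 1 library left out). The causes were not tested. Libraries of equal number did not deviate together (r = -0.0089, -0.071, 0.061 and 0.15), and a replicate block left 9 genes called and 0 of the chaperone genes. Hspa1a and Hspa1b had 0 to 22 counts per library, so small differences were not detectable at this depth.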
